A study of Mus musculus with 18 samples.

Results

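Gt(ROSA)26Sor, the non-coding transcript of the ROSA26 locus, and the genes on either side of it, Setd5 and Thumpd3, are described here in bone marrow-derived macrophages (BMMs). These 3 genes, of 38887 genes in the files, were chosen by their place at ROSA26, where the GILZ TG mice carry the transgene, and by their TPM in these 18 libraries, which were already known, so that their own values are a description and carry no test. The libraries came from age- and sex-matched female C57BL/6J mice of 3 genotypes that, per the study's methods, all carry Cre recombinase under the endogenous Lyz2 promoter, which is active in the myeloid lineage. WT mice carry no further allele. GILZ KO mice have Tsc22d3, the gene of the glucocorticoid-induced leucine zipper (GILZ), with loxP sites around exon 6. GILZ TG mice have a Tsc22d3/Gilz-1 cDNA in ROSA26 behind a loxP-flanked stop cassette, so Cre releases its expression from the ROSA26 promoter; EGFP is part of the strain's name. The position of the insertion within ROSA26 is not given in the sources used here. Bone marrow cells were differentiated for 6 days with 50 ng/ml M-CSF and then received either no treatment or, for 4 h, 100 ng/ml of LPS, a cell wall component of Gram-negative bacteria, with 3 preparations for each genotype and treatment and 18 poly(A) RNA-Seq libraries in all.

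ROSA26 was first found in a gene trap screen in mouse embryonic stem cells and is expressed in almost every tissue, for which reason transgenes are often placed there, usually in the first intron of Gt(ROSA)26Sor. Its transcript codes for no known protein. Setd5 starts at the same promoter region in the opposite direction and encodes a SET domain protein that binds the histone deacetylase HDAC3 and the elongation complex PAF1. Thumpd3, on the other side, encodes a methyltransferase that modifies a guanosine of tRNAs together with its cofactor TRMT112.

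In the GRCm38 assembly, with the gene models of GENCODE M21, Gt(ROSA)26Sor (ENSMUSG00000086429) lies on the minus strand at chr6:113067428-113077333. Setd5 (ENSMUSG00000034269) lies on the plus strand at chr6:113077365-113153435, so only 31 bases separate the first bases of the head-to-head genes. Thumpd3 (ENSMUSG00000030264) lies on the plus strand at chr6:113046225-113068273, and its 3′ end overlaps that of Gt(ROSA)26Sor over 846 bases. Of the 1695 exonic bases of Gt(ROSA)26Sor, 145 are also exonic in Thumpd3, all of them in the last exon of the 3-exon isoforms 202 and 204. The library kit marks the strand, but the strand setting of the counting is not stated, so reads from these 145 bases might be assigned to either gene. The expected count of Gt(ROSA)26Sor was a whole number in all 18 libraries and that of Thumpd3 in 17.

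Gt(ROSA)26Sor has 4 isoforms with 2 alternative first exons, which all join the same second exon across the first intron of 5632 or 5738 bases. The first exons are shown because a transcript that starts at the ROSA26 promoter and passes the first intron carries one of these junctions. They are printed in the sense of the transcript (minus strand, 5′ to 3′), with exon 1 in lower case and the first 20 bases of exon 2, chr6:113071416-113071435, in capitals. The first exons of isoforms 202 and 204 lie within those of 201 and 203, respectively.
Gt(ROSA)26Sor-201, exon 1 at chr6:113077068-113077210: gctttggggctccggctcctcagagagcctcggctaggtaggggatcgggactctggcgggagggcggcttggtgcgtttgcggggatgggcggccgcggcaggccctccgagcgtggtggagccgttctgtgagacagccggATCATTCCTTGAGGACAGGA
Gt(ROSA)26Sor-203, exon 1 at chr6:113077174-113077333: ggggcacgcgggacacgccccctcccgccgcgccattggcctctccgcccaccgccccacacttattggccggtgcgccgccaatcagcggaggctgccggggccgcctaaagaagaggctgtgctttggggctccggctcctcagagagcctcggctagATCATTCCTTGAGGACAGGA
Both first exons were rich in G and C, with a GC content of 71.3% and 14 CpG dinucleotides among 143 bases in isoform 201, and 71.9% and 16 among 160 bases in isoform 203. The full length was 1181 bases for isoform 201, 412 for 202, 822 for 203 and 551 for 204.

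Levels are given as TPM, the abundance of a gene's transcripts scaled by their length and by the library total. In every one of the 18 libraries Thumpd3 had the highest TPM of the 3 genes, followed by Setd5 and Gt(ROSA)26Sor. Libraries held 14583055 to 38557029 reads on genes, with a median of 24450362. Macrophage markers were high throughout, at a summed 3825 to 5021 TPM for 7 genes (among them Adgre1, Csf1r and Cd68). The 4 T cell markers summed to 0.75 to 3.56 TPM, with Cd3e at 0 in all libraries. Marker sums of other cell types differed in GILZ TG: 7 stromal markers, such as Col1a1 and Dcn, summed to 101 and 115 TPM in untreated replicates 1 and 2 but to 9.75 in replicate 3, against 4.88 to 21.8 in WT and GILZ KO. After LPS the stromal sum was 80.2, 109 and 10.3 TPM in GILZ TG, against 10.4 to 21.5 in WT and GILZ KO. The 7 neutrophil lineage markers summed to 68.3 to 516 TPM in GILZ TG and 20.7 to 77.2 TPM in the other genotypes, and the 6 B lineage markers to 11.8 to 112 and 4.2 to 15.02 TPM, respectively. In such bulk libraries, fewer cells that express a gene and less RNA per cell cannot be told apart.

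The targeted gene followed the labels without treatment. Tsc22d3 measured 15.8, 14.9 and 18.8 TPM in WT, 1.89, 2.81 and 2.31 TPM in GILZ KO, and 156, 160 and 152 TPM in GILZ TG. The log2 fold change against WT was -2.74 ± 0.14 (SE) in GILZ KO, with an adjusted p of 2.16e-05, and 2.63 ± 0.11 in GILZ TG, with an adjusted p of 3.73e-06 (edgeR quasi-likelihood test, Benjamini-Hochberg over all 12621 genes tested). After LPS, Tsc22d3 was at 4.56, 5.81 and 5.09 TPM in WT, 2.96, 3.28 and 2.5 TPM in GILZ KO and 127, 141 and 127 TPM in GILZ TG. The difference of GILZ TG passed the test again (4.07 ± 0.11, adjusted p = 1.04e-08 with edgeR), whereas that of GILZ KO did not (-0.69 ± 0.14, adjusted p = 0.15), although the GILZ KO values lay below all WT values. Lyz2, the lysozyme gene whose locus carries Cre, did not measure alike in the genotypes: it lay between 6766 and 15401 TPM in the 6 WT libraries and between 17.2 and 70.3 TPM in the 12 GILZ KO and GILZ TG libraries. The Lyz2 values therefore put in doubt whether WT carries Cre at this locus in the same way as the other genotypes, and GILZ TG against GILZ KO is the comparison without this difference.

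Gt(ROSA)26Sor was at 13.9, 13.7 and 14.8 TPM in untreated WT, 9.72, 11.08 and 11.04 TPM in GILZ KO, and 2.06, 1.07 and 0.77 TPM in GILZ TG. The 3 genotypes did not overlap, and the GILZ TG libraries stood far below the rest. The reads behind these values numbered 213 to 235 in WT, 123 to 147 in GILZ KO, and 15, 11 and 5 in GILZ TG, with 95% exact Poisson intervals of 8.4 to 24.7, 5.49 to 19.7 and 1.62 to 11.7 reads for the latter, which cover counting error only. On the scale of TMM-normalised counts, the log2 fold change of GILZ TG was -4.24 ± 0.27 (SE) against WT and -3.78 ± 0.27 against GILZ KO, an 18.9-fold and a 13.7-fold lower count. In mean TPM the groups stood less far apart, at 14.1 ± 0.598 (SD, n = 3) in WT and 1.3 ± 0.675 in GILZ TG, a ratio of 10.9.

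After LPS the same order was seen. Gt(ROSA)26Sor was at 10.1, 11.6 and 8.49 TPM in WT, 10.1, 9.07 and 7.79 TPM in GILZ KO, and 0.7, 1.23 and 1.18 TPM in GILZ TG. WT and GILZ KO overlapped here, and all GILZ TG libraries lay below both. The reads numbered 124 to 140 in WT, 68 to 110 in GILZ KO and 8, 12 and 5 in GILZ TG. The log2 fold change of GILZ TG was -4.30 ± 0.22 (SE) against WT and -4.10 ± 0.23 against GILZ KO on the count scale. Relative to the WT mean in counts scaled to library size, the individual GILZ TG libraries held between 2.59% and 8.8% of the Gt(ROSA)26Sor reads over both treatments. GILZ TG replicate 3 had 2.59% without treatment and 4.51% after LPS. Its stromal marker sums of 9.75 and 10.3 TPM lay below those of WT, whereas its neutrophil lineage sums (68.3 and 83.5 TPM) and B lineage sums (19.5 and 11.8 TPM) lay above those of WT and GILZ KO under the same treatment. The part of other cells in the level of Gt(ROSA)26Sor was not tested.

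**Figure D1:**
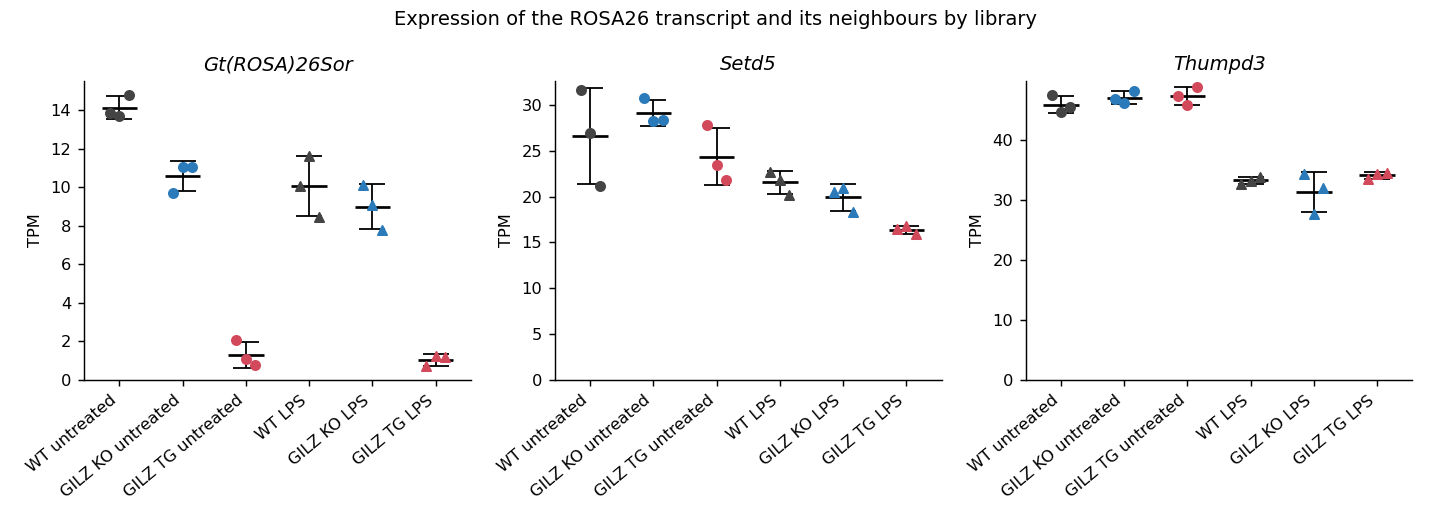
TPM of Gt(ROSA)26Sor, Setd5 and Thumpd3 in each of the 18 libraries (points; circles untreated, triangles LPS), with the mean (wide line) and SD (bars) of the 3 libraries of each group. Gt(ROSA)26Sor lies between 0.7 and 2.06 TPM in GILZ TG and between 7.79 and 14.8 TPM in the other genotypes, whereas Setd5 and Thumpd3 stay within 15.9 to 31.6 and 27.7 to 48.7 TPM in all libraries.

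GILZ KO BMMs, which have no insertion at ROSA26 by their labels, had less Gt(ROSA)26Sor than WT without treatment. The log2 fold change was -0.46 ± 0.20 (SE), and the mean was 10.6 ± 0.774 TPM (SD, n = 3), which is 75.1% of that in WT. Groups with no overlap in TPM were common in this comparison, with 17.2% of all genes tested. After LPS the groups overlapped, and the log2 fold change was -0.21 ± 0.17 (SE). Ranked by mean TPM, the 6 groups were untreated WT, untreated GILZ KO, WT with LPS, GILZ KO with LPS (9.00 ± 1.17), untreated GILZ TG and GILZ TG with LPS (1.04 ± 0.293). Of the neighbours in this order, the first and the second group did not overlap, nor did the fourth and the fifth, whereas the other 3 pairs of neighbours did. The median gene was also lower in TPM after LPS, as given below, so the order across treatments is not read as an LPS response.

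The estimated transcript length of Gt(ROSA)26Sor differed in GILZ TG as well. The abundance-weighted transcript length is the mean length of a gene's isoforms weighted by their estimated share. For Gt(ROSA)26Sor it was 1065, 1111 and 1050 bases in untreated WT. It was 689, 712 and 549 bases in untreated GILZ TG and 603, 607 and 453 bases after LPS. All 6 GILZ TG libraries (453 to 712 bases) lay below all 12 WT and GILZ KO libraries (943 to 1125 bases). The GILZ TG mean was 60.5% of the WT mean without treatment and 53.4% after LPS. For comparison, the isoforms measure 1181 (201), 822 (203), 551 (204) and 412 (202) bases, and the deposited tables used here give no value per isoform. These lengths are estimates from the 5 to 15 reads per GILZ TG library given above. Isoforms 202 and 204 hold the 145 bases shared with Thumpd3 exons, so with the strand setting of the counting not stated, the origin of the remaining reads in one or the other gene was not tested. TPM divides by this length, and for untreated GILZ TG against WT the ratio was 18.9 in counts and 10.9 in TPM.

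Tsc22d3 changed in length as well. Its weighted length was 1866 to 2265 bases in the WT and GILZ KO libraries and 1254 to 1369 bases in the GILZ TG libraries, without overlap. The transgene is a cDNA of this gene, and reads of the transgene and of the endogenous Tsc22d3 cannot be told apart in these gene values. In mean TPM, Tsc22d3 was 139 higher in GILZ TG than in WT without treatment and 127 higher after LPS, whereas Gt(ROSA)26Sor was 12.8 and 9.03 lower. In TPM, the gain in Tsc22d3 was thus 10.9 and 14.0 times the loss in Gt(ROSA)26Sor. The length of the transgene transcript is not given, so no ratio per transcript is read from these values.

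**Figure D2:**
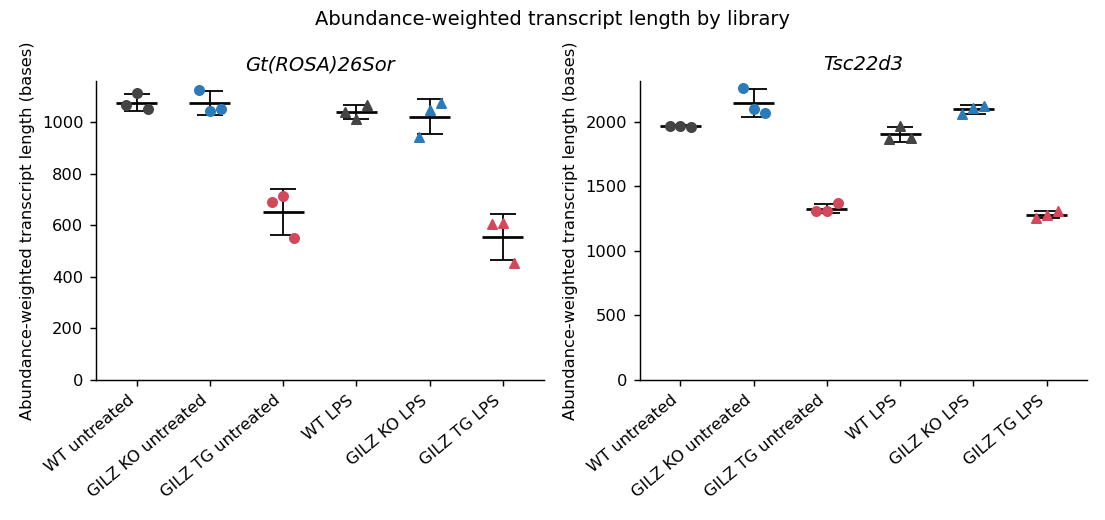
Abundance-weighted transcript length in bases of Gt(ROSA)26Sor and Tsc22d3 in each library (points; circles untreated, triangles LPS), with mean and SD of the 3 libraries per group. In both genes all GILZ TG libraries lie below all others, at 453 to 712 bases for Gt(ROSA)26Sor and 1254 to 1369 bases for Tsc22d3.

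Setd5, which shares the promoter region with Gt(ROSA)26Sor, kept most of its level in GILZ TG. Without treatment it was at 31.6, 26.9 and 21.2 TPM in WT, 30.8, 28.2 and 28.4 TPM in GILZ KO, and 27.8, 23.4 and 21.9 TPM in GILZ TG. GILZ TG and WT overlapped, whereas all GILZ TG values lay below the lowest GILZ KO value. The log2 fold change of GILZ TG was -0.12 ± 0.09 (SE) against WT and -0.20 ± 0.09 against GILZ KO. After LPS, Setd5 was at 22.7, 21.8 and 20.2 TPM in WT, 20.4, 21.0 and 18.3 TPM in GILZ KO, and 16.4, 16.8 and 15.9 TPM in GILZ TG. Here all GILZ TG libraries were lower than all others, with a log2 fold change of -0.31 ± 0.07 against WT and -0.29 ± 0.07 against GILZ KO, which is 1.24-fold and 1.22-fold. The value of GILZ KO against WT was -0.02 ± 0.07. The stromal, neutrophil and B lineage sums given above also differed in GILZ TG, and their part in the Setd5 values was not tested.

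Thumpd3 showed no such shift. Without treatment it was at 47.4, 44.6 and 45.5 TPM in WT, 46.8, 46.0 and 48.1 TPM in GILZ KO, and 47.3, 45.8 and 48.7 TPM in GILZ TG. After LPS it was at 32.7, 33.2 and 33.8 TPM in WT, 34.2, 27.7 and 32.0 TPM in GILZ KO, and 33.4, 34.2 and 34.5 TPM in GILZ TG. The genotypes overlapped within each treatment. The log2 fold change of GILZ TG against WT was 0.10 ± 0.06 (SE) without treatment and 0.01 ± 0.07 after LPS.

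Groups with no overlap in TPM were found for 1 of the 3 genes in untreated GILZ TG against WT and for 2 of 3 in GILZ TG against WT after LPS, where 14.9% and 15.2% of all genes tested had none. In GILZ TG against GILZ KO it was 2 of 3 genes in either treatment, where 28.7% and 20.6% of all genes had none. The genes were chosen with these levels known, so nothing is read from these counts.

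LPS changed the scale on which the 3 genes are read. The median log2 fold change of all genes was -0.02 on the TMM count scale in each genotype but -0.51 to -0.52 on the log2(TPM + 1) scale, and accordingly the TPM of all 3 genes were lower after LPS while the count-based fold changes were slightly above 0. Therefore the LPS values are given relative to the median gene. For Gt(ROSA)26Sor they were 0.11 in WT, 0.34 in GILZ KO and 0.03 in GILZ TG on the count scale, and 0.05, 0.30 and 0.36 on the log2(TPM + 1) scale. The SE was 0.18, 0.19 and 0.34, respectively, and the value in GILZ TG rests on 5 to 15 reads per library. For Setd5 they were 0.27, 0.14 and 0.07 on the count scale and 0.23, -0.01 and -0.03 on the log2(TPM + 1) scale, so that the sign turned in GILZ KO and GILZ TG. For Thumpd3 they were 0.22, 0.16 and 0.13 on the count scale and 0.06, -0.06 and 0.05 on the log2(TPM + 1) scale, with the sign turned in GILZ KO. The TPM of LPS and untreated libraries did not overlap for 2 of the 3 genes in each genotype, which were Gt(ROSA)26Sor and Thumpd3 in WT and Setd5 and Thumpd3 in GILZ KO and GILZ TG, where 81.2%, 83.7% and 80.9% of all genes did not overlap. The LPS response of GILZ TG minus that of WT was -0.08 ± 0.39 (SE, log2) for Gt(ROSA)26Sor, -0.21 ± 0.11 for Setd5 and -0.09 ± 0.09 for Thumpd3 on the count scale.

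Genes farther out on chromosome 6 were compared in the same way. As flanking genes served the 10 next protein-coding genes on either side, from Bhlhe40, whose start lies 4416.7 kb from that of Gt(ROSA)26Sor on the Thumpd3 side, to Rpusd3, 342 kb away on the Setd5 side. Of these 20 genes, 13 passed the filter on low counts. The other 7, namely Grm7, Lmcd1, Ssu2, Cav3, Oxtr, Lhfpl4 and Cpne9, reached at most 0.39 TPM in any library.

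None of the 13 flanking genes passed the test in GILZ TG against WT, without treatment (background 0.642% of 12621 genes) or after LPS (0.46% of 12164 genes), by edgeR's quasi-likelihood test. At an unadjusted p under 0.05 there were 4 genes without treatment and 1 after LPS, and DESeq2 called 1 gene (Bhlhe40) and 0, respectively. The fitted log2 fold changes ranged from -0.19 to 0.4 and from -0.18 to 0.32, with SEs up to 0.18 and 0.42, while the median was 0.04 in both treatments against 0.00 and 0.01 over all genes. The nearest tested neighbours beyond Thumpd3 and Setd5 were Srgap3, which encodes a Rac GTPase-activating protein, and Mtmr14, which encodes a phosphoinositide phosphatase. Srgap3 had 0.29 ± 0.12 (SE, log2) without treatment, with an adjusted p of 0.307 by edgeR, and its levels were 6.61 ± 1.76 TPM (SD, n = 3) in WT against 7.98 ± 0.822 in GILZ TG. Mtmr14 was at 40.2 ± 4.17 TPM in untreated WT against 39.6 ± 3.53 in GILZ TG. Of the 3 nearest genes on each side, Rad18, which encodes a ubiquitin ligase of DNA damage tolerance, was at 40.8 ± 2.24 TPM in WT against 37.1 ± 2 in GILZ TG, whereas Oxtr, Lhfpl4 and Cpne9 were below the filter.

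**Figure D3:**
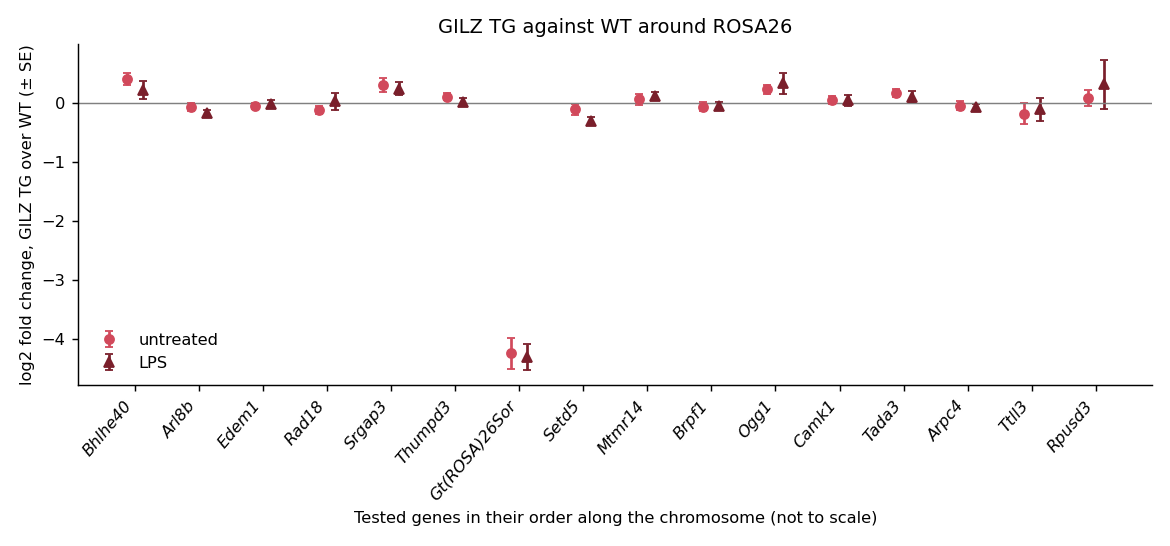
Log2 fold change of GILZ TG over WT with its SE, from TMM-normalised counts, for the 3 genes of the locus and the 13 tested flanking genes in chromosomal order (not to scale; circles untreated, triangles LPS). Gt(ROSA)26Sor stands at -4.24 and -4.30, while the flanking genes lie between -0.19 and 0.4.

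In GILZ KO against WT, 0 of 13 flanking genes passed the edgeR test without treatment (background 0.0951%) and 0 after LPS (0.0822%), with 1 and 2 genes at an unadjusted p under 0.05 and 0 by DESeq2. Over all genes DESeq2 called 79 and 100, respectively. In untreated GILZ TG against GILZ KO, 1 of 13 passed, against a background of 4.94%. This was Bhlhe40, a basic helix-loop-helix repressor, which was higher in GILZ TG with a log2 fold change of 0.40 ± 0.10 (SE) and an adjusted p of 0.0495 in edgeR. Its levels were 12.2 ± 1.23 TPM in GILZ TG, 10.1 ± 1.09 TPM in GILZ KO and 9.22 ± 0.662 TPM in WT (SD, n = 3). The call of Bhlhe40 lies at the threshold and was kept without WT replicate 3 but lost without any one of the other 8 replicates, with adjusted p-values of 0.054 to 0.18 in edgeR. Without GILZ TG replicate 3, Edem1 was called instead, and without the other 7 no flanking gene was. After LPS 0 of 13 passed with edgeR against a background of 2.6%, with 3 genes at an unadjusted p under 0.05 and 1 by DESeq2 (Srgap3, 0.43, adjusted p = 0.042), and edgeR called Srgap3 too without GILZ TG replicate 3. Within 5 Mb on each side, 82 protein-coding genes other than the locus genes are annotated, of which 49 were tested without treatment and 47 after LPS. None of them passed the edgeR test in GILZ TG against WT in either treatment, while 13 and 6 had an unadjusted p under 0.05, and DESeq2 called 2 (Bhlhe40 and Rassf4) and 1 (March8), respectively. In untreated GILZ TG against GILZ KO, 5 of 49 passed (10.2%), and DESeq2 called 7, with Cxcl12 and Pparg in addition. Over all genes DESeq2 called 1218 in this comparison. Besides Bhlhe40, the genes that passed in edgeR were Fancd2, Plxnd1, March8 and Rassf4, which were lower in GILZ TG by log2 values of -0.37, -0.33, -0.29 and -0.30 and lie 0.45, 2.88, 3.26 and 3.56 Mb from ROSA26 (adjusted p = 0.0215, 0.0198, 0.0188 and 0.0356, respectively, edgeR). They were named after their values were seen. Their calls held in 4, 6, 4 and 3 of the 9 fits with one replicate left out, respectively. After LPS 0 of 47 passed in edgeR, 9 had an unadjusted p under 0.05, and DESeq2 called 1 (Srgap3). The edgeR count over all genes in untreated GILZ TG against GILZ KO, 623, moved between 79 and 1306 with one replicate left out.

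LPS changed 9 of the 13 flanking genes in at least one genotype, and 7 passed in all 3. The count was 8 in WT, 8 in GILZ KO and 9 in GILZ TG, near the background of 68.6%, 68.5% and 68.7% of all genes, respectively. In WT 2 were higher and 6 lower on the count scale, and 1 was higher and 12 lower on the log2(TPM + 1) scale with limma. The latter counts are not centred on the median gene, which stood at -0.51 on that scale. Mtmr14 rose in each genotype, with log2 fold changes of 2.74, 2.60 and 2.78 (SE 0.09 in each) in WT, GILZ KO and GILZ TG, from 40.2 ± 4.17 to 168 ± 0.657 TPM in WT (SD, n = 3). Bhlhe40, Srgap3, Rad18, Rpusd3 (a mitochondrial pseudouridine synthase), Camk1 (a calcium/calmodulin-dependent kinase) and Ogg1, which encodes the DNA glycosylase for 8-oxoguanine, fell in all 3. In WT the log2 fold change was -1.22 ± 0.12 for Bhlhe40, -1.05 ± 0.12 for Ogg1 and -1.40 ± 0.31 for Rpusd3. Camk1 and Ogg1 overlap at their ends on opposite strands, so reads there might be assigned to either. Edem1, a factor of protein degradation in the endoplasmic reticulum, was called higher in WT and GILZ TG on the count scale, but its TPM were lower after LPS (109 ± 6.25 against 85.0 ± 3.01 TPM in WT). On the log2(TPM + 1) scale it was at -0.357 in WT, above the median gene at -0.508. Arl8b, a small GTPase of lysosomes, fell in GILZ KO and GILZ TG by 0.20 and 0.23 on the log2 scale. For the difference between the LPS responses of GILZ TG and WT, 0 of 13 flanking genes passed the edgeR test (background 0.00759%), and 0 had an unadjusted p under 0.05.

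**Figure D4:**
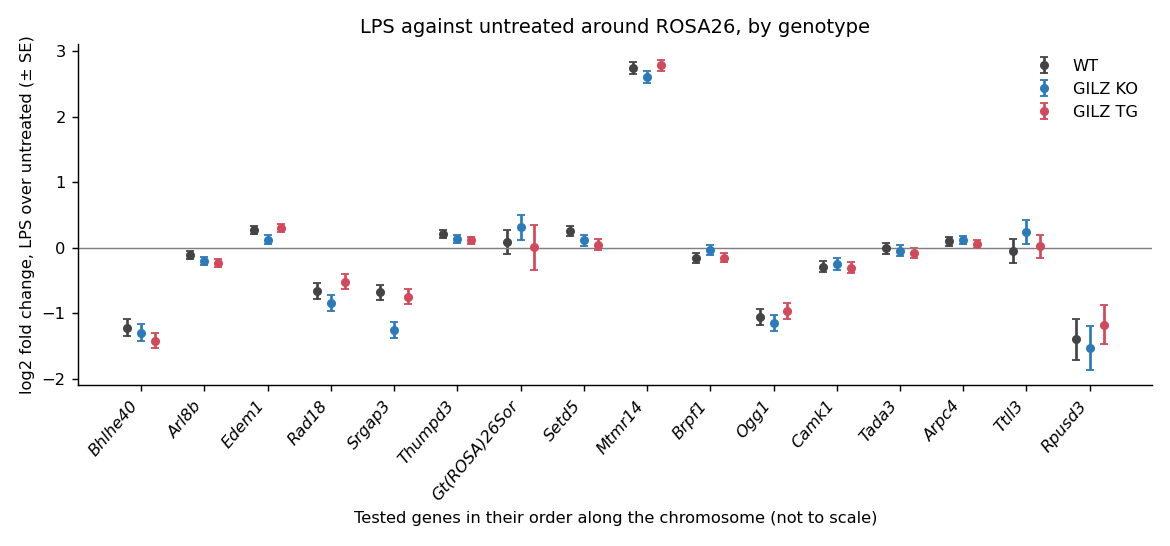
Log2 fold change of LPS over untreated with its SE, from TMM-normalised counts, by genotype (grey WT, blue GILZ KO, red GILZ TG) for the 3 genes of the locus and the 13 tested flanking genes in chromosomal order (not to scale). Mtmr14 stands between 2.60 and 2.78 in each genotype, whereas Gt(ROSA)26Sor, Setd5 and Thumpd3 lie between 0.01 and 0.31.

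Partners of the neighbouring proteins were followed in lists. Of 16 genes of SETD5 partners and relatives (among them Kmt2e, Hdac3, the PAF1 complex and the BET bromodomain genes), all were tested and 0 passed the edgeR test in any of the 6 genotype comparisons. Between 0 and 5 had an unadjusted p under 0.05 in a comparison. DESeq2 called only Tbl1xr1, in untreated GILZ TG against GILZ KO, where it called 1218 over all genes. The median log2 fold change of GILZ TG against WT was 0.01 without treatment and 0.00 after LPS. With LPS, 12 of 16 passed in WT, near the background of 68.6%, of which 6 were higher and 6 lower on the count scale. On the log2(TPM + 1) scale with limma, not centred on the median gene, 3 were higher and 12 lower. Brd2 rose by 1.29 ± 0.08 (SE, log2) and Paf1 by 0.88 ± 0.06, whereas Brd3 fell by 1.45 ± 0.08. These 3 kept their direction on both scales. In GILZ KO it was 12 and in GILZ TG 11 of 16. Of 9 THUMPD3 partners and relatives, 0 passed by edgeR or DESeq2 in any genotype comparison, with at most 2 at an unadjusted p under 0.05, and 5 passed in edgeR with LPS in each genotype (background 68.5% to 68.7%). Trmt112, the cofactor of THUMPD3 and other methyltransferases, was called higher in WT by 0.58 ± 0.10 on the count scale. On the log2(TPM + 1) scale it stood at -0.12, and at 0.39 relative to the median gene. Thumpd2 fell by 1.20 ± 0.17 and Nat10, an RNA cytidine acetyltransferase, by 0.90 ± 0.09, with the same direction on both scales. In WT 1 was higher and 4 lower on the count scale, against 0 and 8 on the log2(TPM + 1) scale, again not centred on the median gene. In the difference between the LPS responses of GILZ TG and WT none of either list passed in edgeR or DESeq2 or had an unadjusted p under 0.05. In the promoter of Thumpd3 (RefSeq, GRCm38, 300 bases around the start), CCGGAA, a core of ETS factor sites, was found 3 times on both strands together, and 14.9% of 32851 promoters of this length hold it; GGGCGG (held by 35.7%), CCATNTT (16.1%) and the NRF1 motif (0.971%) were not found in this window.

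Genes with a pattern like that of Gt(ROSA)26Sor were found by Pearson's r of log2 CPM (counts scaled to library size) over the 18 libraries, among 9392 genes with a mean of at least 5 TPM. The highest were Colec12 (0.91), Serpinb6a (0.91), Zfp992 (0.88), Znf41-ps (0.88) and Pon3 (0.88), and the lowest were Kctd17 (-0.91), Parvg (-0.88), Tsc22d3 (-0.88), Igkc (-0.87) and Thg1l (-0.87). The 18 points share genotype groups, and the GILZ TG libraries form a cluster of their own: over the 12 WT and GILZ KO libraries alone, r was -0.33 for Colec12, -0.45 for Serpinb6a, -0.08 for Kctd17 and 0.79 for Tsc22d3. Colec12, which encodes a scavenger receptor, was at a mean 30.4 TPM in untreated WT, 32.9 in GILZ KO and 14.6 in GILZ TG. Igkc, the immunoglobulin kappa constant gene of B lineage cells, was at 0.617, 0.943 and 50.4 TPM. Setd5 had an r of 0.69 with Gt(ROSA)26Sor over all libraries and of 0.06 without GILZ TG, and Thumpd3 -0.30 and 0.50.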

How the data were processed

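The authors isolated poly(A) RNA, made libraries with a directional kit, sequenced single reads of 75 bases and mapped them to GRCm38 with the grape-nf pipeline; per the submitters' processing notes FastQC 0.11.2 and DESeq2 1.40.2 were used. Each of the 18 deposited tables gives, per gene, the expected count that the authors' quantification estimated from the reads, without normalization. The deposited tables also give the authors' TPM and the weighted and effective transcript lengths in bases. The authors' DESeq2 tables hold fold changes and p-values and were not used. Symbols were matched by Ensembl identifier to GENCODE M21 (37570 of 38887 genes); 14 rows without a gene were dropped.

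Counts were rounded, filtered by filterByExpr, normalized by TMM and tested by edgeR 4.0.16 (quasi-likelihood, R 4.3.3; Benjamini-Hochberg, threshold 0.05). Genotypes were compared in the 9 libraries of a treatment, and LPS in all 18 libraries. The study describes the 3 libraries of a group as independent preparations; whether the untreated and LPS library of one number share a preparation is not stated. Deviations from the group means of same-numbered untreated and LPS libraries correlated above 0.1 in all 3 pairs of GILZ TG (0.266, 0.397 and 0.605). They did not in all pairs of WT or GILZ KO. Untreated WT and GILZ TG of replicate 1, which differ in genotype, stood at 0.241. Differently numbered libraries were not compared, so whether the numbers pair libraries was not tested. On simulated counts of untreated GILZ TG against WT (12521 genes, 200 changed), edgeR recovered 96% of 2-fold and 100% of 4-fold changes, and 7.98% of its calls were false. Changes were placed only in genes above a minimum mean count. The recovery thus does not cover genes below that count. Nor does it cover changes below 2-fold, such as those fitted for the flanking genes between genotypes. Depth limits genes with few reads, such as Gt(ROSA)26Sor in GILZ TG, which passed the filter through WT and GILZ KO.

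The members, gene lists and tests were chosen with earlier results of these data known. Named were the 3 genes in every library, Tsc22d3, Lyz2, flanking genes that passed a test and the 3 nearest on each side, list members that passed (1 is not reported here), and the 5 genes most and least alike. Marker lists covered macrophages, stromal fibroblasts, B, neutrophil, T, endothelial and erythroid cells. Endothelial and erythroid markers summed to at most 13.3 and 0.88 TPM. Alternatives were DESeq2 1.42.0, its size factors, no filter or at least 10 counts in 3 libraries, limma 3.58.1 on log2(TPM + 1) and log2(TPM + 0.1), other sets of libraries, a replicate block and leaving out each replicate.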

Additional observations from a re-analysis of the deposited data

Results flagged for a closer look

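The LPS response of Tsc22d3 was the one result for which the effects of 2 groups differed by a test of the difference itself, GILZ TG minus WT, by 1.43 ± 0.16 (SE, log2) in a fit of all 18 libraries, with an adjusted p of 0.00139 in edgeR. In WT Tsc22d3 fell by 1.1 ± 0.13 with LPS. In GILZ TG it was higher by 0.33 ± 0.10 on the count scale. Its TPM there were lower, with 152 to 160 without treatment and 127 to 141 after LPS. Relative to the median gene, Tsc22d3 in GILZ TG stood at 0.35 on the count scale and 0.27 on the log2(TPM + 1) scale. In GILZ KO, without the transgene, Tsc22d3 was also higher, by 0.92 ± 0.18 on the count scale (adjusted p = 0.000186, edgeR), with overlapping TPM. The LPS response of GILZ KO minus that of WT was not tested. In GILZ TG the reads of the ROSA26 transgene and of the endogenous gene are counted together. Gt(ROSA)26Sor had an LPS response of 0.08 ± 0.18 in WT on the count scale. The part of the transgene in the Tsc22d3 response was not tested.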

How the results depend on the processing

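The level of Gt(ROSA)26Sor in GILZ TG against WT kept its direction under all alternatives, but its size depends on the scale: it was -2.76 with limma on log2(TPM + 1) and -3.45 on log2(TPM + 0.1) without treatment, and -2.44 and -3.19 after LPS (the ratio of mean TPM without a pseudocount is 10.9 and 9.71). Leaving out one replicate at a time gave -4.57 (without GILZ TG replicate 2) to -4.10 after LPS. Setd5 after LPS was at -0.395 on log2(TPM + 0.1). Setd5 and Thumpd3 otherwise moved by less than the spread between replicates in GILZ TG against WT.

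For the flanking genes, 1 was called in GILZ TG against WT without treatment by DESeq2 (Bhlhe40). In untreated GILZ TG against GILZ KO the call of Bhlhe40 was lost, leaving 0, with at least 10 counts in 3 libraries, with limma on either TPM scale, with only the libraries compared and with all 18 libraries; leaving out one replicate gave 0 to 1 (Edem1 without GILZ TG replicate 3). In GILZ TG against GILZ KO after LPS, 1 (Srgap3) was called by DESeq2, with no filter and with all 18 libraries, and 0 to 1 when one replicate was left out. With LPS in WT, limma called 13 on both TPM scales. In these, Edem1 turned to -0.357 and -0.36 in WT and -0.328 and -0.332 in GILZ TG, and Tsc22d3 with LPS in GILZ TG to -0.243 and -0.244. The median gene stood at -0.508 and -0.622 in WT and at -0.511 and -0.622 in GILZ TG on these scales, so Edem1 lay above it. Relative to the median gene, Tsc22d3 in GILZ TG stood at 0.269 and 0.378, with the sign of the count scale. The cause was not tested beyond this shift. Tsc22d3 in GILZ KO against WT after LPS passed with DESeq2 (adjusted p = 0.00605) and without a filter in edgeR (0.0139), and the adjusted p ranged from 0.0553 to 0.619 in the other alternatives.

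The count over all genes in GILZ TG against WT was 81 without treatment and 56 after LPS, 20 to 312 and 15 to 412 under the other settings and 16 (without WT replicate 2) to 665 (without GILZ TG replicate 3) and 15 to 1067 (without the same libraries, respectively) with one replicate left out. Deviations of same-numbered libraries correlated above 0.1 in 2 of 18 pairs of genotypes (-0.136 to 0.241). For untreated and LPS libraries it was 4 of 9 pairs (-0.033 to 0.605), among them every pair of GILZ TG. Differently numbered libraries were not compared, so pairing by number was not tested. With a replicate block, Gt(ROSA)26Sor in GILZ TG against WT was at -4.25 without treatment and -4.32 after LPS, and the flanking genes called were 0 in GILZ TG against WT and 9 in each genotype with LPS, with Arl8b added in WT and Edem1 in GILZ KO and no call of a flanking gene lost. Depth limits Gt(ROSA)26Sor in GILZ TG, with 5 to 15 reads per library.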
